A study of Mus musculus with 20 samples.

Results

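The 8 rows described here belong to, or lie beside, genes of antigen presentation by MHC class II. They are the rows named H2-Ab1, H2-Eb1, Cd74, H2-DMa, Brd2, Ciita, Dexi and BC051537, chosen by name from the 46329 gene rows that every count file holds. Brd2, Dexi and BC051537 are not class II genes: they were included because their annotated exons overlap those of H2-DMa, Ciita and H2-Oa on the opposite strand. All 8 rows passed the filter on low counts, as did 7119 of the 46329 rows.

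The study asked what ERBB2, a receptor tyrosine kinase, does in intestinal tumors of mice. All 20 samples carried the ApcMin/+ mutation, which gives intestinal adenomas, and the floxed Erbb2f/f allele on a C57BL/6J background, and were taken at 100 days of age. The Erbb2-deficient groups also carried Tg(Vil1-cre), in which the Villin promoter drives cre recombinase in the intestinal epithelium. The controls were littermates without the transgene. Each genotype gave 5 libraries of colorectal tumor and 5 of adjacent non-tumor tissue, read by stranded mRNA sequencing of bulk tissue. The 4 groups are therefore control adjacent tissue, control tumor, Erbb2-deficient adjacent tissue and Erbb2-deficient tumor.

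MHC class II molecules are pairs of an alpha and a beta chain that show peptides from endosomes to CD4+ T cells. Cd74, the invariant chain, guides new molecules to the endosome and blocks their groove. H2-DM then helps to load the peptide, and H2-O, found mainly in B cells, restrains H2-DM. Ciita is the coactivator that switches these genes on together with factors bound at their promoters. B cells, dendritic cells and macrophages express class II constantly, and the intestinal epithelium can express it when exposed to interferon gamma.

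The libraries held 1071737 to 1944309 counts in gene rows, which was 2.51% to 3.45% of all counts listed, and 78.6% to 85.1% of the counts were listed as lying in no feature. The Tsix row, antisense to Xist, held up to 2038 counts and was above 50 CPM (counts scaled to the size of the library over the rows tested, after TMM scaling) in 8 libraries, while the Xist row never held more than 51. Of these 8 libraries, 3 were among the 5 of each control tissue and 1 among the 5 of each Erbb2-deficient tissue, so the likely sex was unbalanced between the genotypes. Reads of a stranded library counted on the opposite strand would give such values, and the strand setting is not given in the sources used here. A row is therefore called by its name as a row, not as the expression of the gene, and the gene opposite is given where one was found. The Erbb2 row held 1 to 22 counts in all 20 libraries and could not check the genotype labels. The library of control tumor 2 stood apart: its median rank correlation with the other libraries of its group was 0.636, against 0.82 to 0.926 for the other 19 libraries with theirs. Of 9 epithelial markers, the rows of Epcam, Krt8, Krt18, Krt19, Cdh1, Muc2 and Cdx2 were at 0 there. Its summed level was 63.5 CPM over 10 T cell marker rows, against 0 to 3.81 CPM in the other 19 libraries. The tissue differences of the 8 rows are given with and without it. Other results are from all 20 libraries unless stated, with the value without it where that changed the call, the direction or the size by over 1.5 times.

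RefSeq windows around the transcription start (GRCm38.p6, 250 bases before to 50 after) were read for 5 of the 8 members. These were H2-Eb1, H2-DMa, Brd2, Dexi and BC051537. No window was held for H2-Ab1 or Ciita, and Cd74 was left out of the members read. Class II promoters are known for an X box and a Y box, the sites through which Ciita acts. The letters GCAAC (an X box core) followed by CTGATTGG (a Y box) were searched, with 15 to 35 bases between them. The search was made after the sequences had been seen. Of 32851 windows of all genes, 30 (0.0913%) held this pair on either strand, and 1346 (4.1%) held CTGATTGG on either strand. The pair was found in the windows of 28 symbols, of which 4 were class II genes: H2-Eb1, H2-Oa, H2-Aa and H2-Eb2. In H2-Eb1, H2-Oa and H2-Aa it lay on the gene's strand. It was not found in the windows of Brd2, H2-DMa, Dexi or BC051537, which says only that these letters are not there. Cd74 was not among the 28 symbols either, which does not show a lack of the boxes, since no sequence was read for it. The 150 bases before the start are shown for the class II genes H2-Eb1, H2-Aa and H2-Oa and for the 2 rows that carried the largest differences, BC051537 (opposite H2-Oa and H2-Pa) and Dexi (opposite Ciita), with the X core and the Y box in capitals.

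H2-Eb1, chr17:34305717-34305866, plus strand: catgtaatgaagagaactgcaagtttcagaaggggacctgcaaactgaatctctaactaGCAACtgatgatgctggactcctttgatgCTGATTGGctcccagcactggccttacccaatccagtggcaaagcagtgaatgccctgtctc
H2-Aa, chr17:34287824-34287973, minus strand: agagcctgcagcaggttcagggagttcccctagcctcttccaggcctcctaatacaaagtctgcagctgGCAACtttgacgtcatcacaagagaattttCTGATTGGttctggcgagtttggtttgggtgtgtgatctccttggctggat
H2-Oa, chr17:34092229-34092378, plus strand: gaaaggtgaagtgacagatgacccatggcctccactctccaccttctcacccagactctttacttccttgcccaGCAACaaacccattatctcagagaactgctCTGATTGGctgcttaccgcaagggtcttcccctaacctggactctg
BC051537, chr17:34095310-34095459, minus strand: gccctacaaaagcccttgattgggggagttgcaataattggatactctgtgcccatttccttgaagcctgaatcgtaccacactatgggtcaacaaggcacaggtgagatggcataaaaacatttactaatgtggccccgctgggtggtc
Dexi, chr16:10543055-10543204, minus strand: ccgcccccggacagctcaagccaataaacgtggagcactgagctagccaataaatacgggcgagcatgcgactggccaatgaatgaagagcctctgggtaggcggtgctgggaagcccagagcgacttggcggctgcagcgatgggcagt

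In H2-Eb1 the Y box began 62 bases before the start and 24 bases separated it from the X core. In H2-Aa it began 51 bases before the start and in H2-Oa 46 bases, each with 25 bases between the boxes. The BC051537 start lies on the minus strand of the same chromosome as the H2-Oa start, and in GENCODE M21 their exons overlap. A read in that stretch belongs to one row or the other by its strand alone.

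The chief measurement across the 8 rows was made without control tumor 2, a library known beforehand to stand apart. The BC051537 and Dexi rows were then lower in tumors than in adjacent tissue of both genotypes. With all libraries, only BC051537 in Erbb2-deficient mice passed the test (edgeR adjusted p = 0.0406), and Dexi there did not (adjusted p = 0.0939). The control values with all libraries were above 0, at 2.68 for BC051537 and 1.5 for Dexi (adjusted p = 0.152 and 0.248). Without control tumor 2, the BC051537 row fell 9.44-fold in control tumors and 20.8-fold in Erbb2-deficient tumors, and the Dexi row fell 4.14-fold and 4.96-fold. The H2-Ab1 row fell 2.61-fold in Erbb2-deficient tumors without control tumor 2 (edgeR adjusted p = 0.0125). It did not pass there with all libraries (adjusted p = 0.175). The H2-Eb1, Cd74, H2-DMa, Brd2 and Ciita rows passed the test in neither genotype. In bulk tissue, fewer cells of a type and less RNA per cell cannot be told apart. All 6 smooth muscle marker rows also fell in tumors of both genotypes (median -5.23 and -5.18 with all libraries), and their part in these differences was not tested.

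In controls 0 of 8 passed with all libraries, where 21.6% of the 7119 rows tested did, and without control tumor 2 the 2 rows BC051537 and Dexi were lower, where 13.6% of 7516 rows were. In Erbb2-deficient mice 1 of 8 was lower with all libraries, where 14.5% of rows were, and 3 of 8 were lower without that library (BC051537, Dexi and H2-Ab1), where 19.3% of rows were. No member was called higher in either genotype, where 10.7% of rows in controls and 13% in Erbb2-deficient mice were (12.9% and 16.9% without control tumor 2). The Erbb2-deficient tissues did not overlap in 2 of 8 members, against 25.5% of all rows tested, so that share was at the background, and the control tissues did not overlap in 0 of 8, against 10.6%. The median difference over all rows was 0.07 in controls and -0.06 in Erbb2-deficient mice on the log2 scale.

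**Figure D1:**
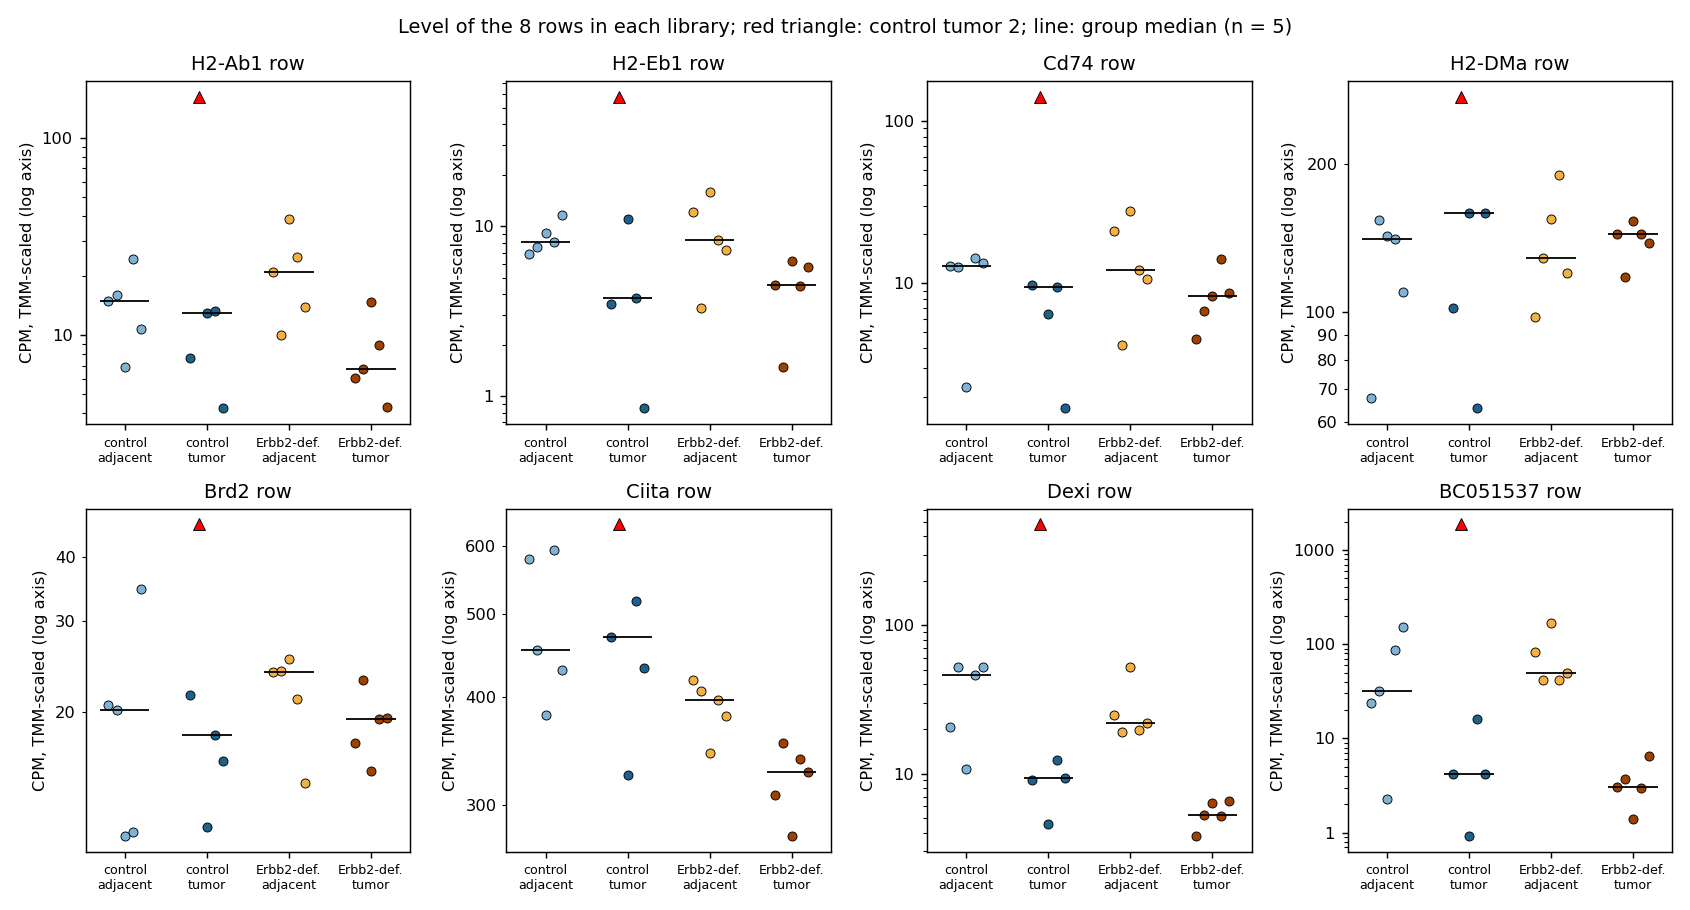
Level of each of the 8 rows (CPM after TMM scaling, log axis) in the 20 libraries, by group; each point is a library, the line is the group median and the red triangle is control tumor 2. Control tumor 2 was the highest library in all 8 rows, by 1.07-fold (Ciita) to 11.3-fold (BC051537) over the next, and the Erbb2-deficient tumors lay below their adjacent tissue without overlap in the Dexi and BC051537 rows.

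The beta chains came first. H2-Ab1 encodes the beta chain of I-A, the class II molecule that C57BL/6 mice express. Its row stood at 14.8, 16.0, 6.88, 24.2 and 10.7 CPM in control adjacent tissue and at 7.68, 162, 12.9, 13.3 and 4.24 CPM in control tumors. It stood at 20.9, 9.97, 38.9, 25.0 and 13.9 CPM in Erbb2-deficient adjacent tissue and at 6.04, 6.71, 14.7, 8.93 and 4.32 CPM in Erbb2-deficient tumors. One control tumor was far above every other library, and the remaining tumors overlapped with adjacent tissue in both genotypes. These levels rest on 5 to 49 counts in the 19 other libraries and on 179 counts in control tumor 2. No gene was found opposite the H2-Ab1 and H2-Eb1 rows, and the span of Cd74 overlaps only that of Mir5107. If counted on the opposite strand, these rows would not hold the mRNA of the genes they name. Their levels are therefore not read as class II expression.

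With all libraries the H2-Ab1 row differed between tumor and adjacent tissue by 1.46 ± 0.73 (log2 fold change ± SE; edgeR adjusted p = 0.16) in controls and by -1.40 ± 0.76 (adjusted p = 0.175) in Erbb2-deficient mice. Without control tumor 2 the control value was -0.62 ± 0.46 (adjusted p = 0.332). The Erbb2-deficient value was then -1.38 ± 0.41 (edgeR adjusted p = 0.0125), so the size stayed and the error narrowed, since all groups share 1 estimate of the spread. The mean in Erbb2-deficient mice was 21.7 ± 11.2 CPM (SD, n = 5) in adjacent tissue and 8.14 ± 4.01 CPM (SD, n = 5) in tumors.

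H2-Eb1 encodes the beta chain of I-E, whose alpha chain gene, H2-Ea, is defective in C57BL/6 mice. The H2-Eb1 row held 1 to 21 counts outside control tumor 2, which held 64. Its mean was 8.66 ± 1.83 CPM (SD, n = 5) in control adjacent tissue and 4.80 ± 4.37 CPM (SD, n = 4) in control tumors without library 2, and 9.40 ± 4.81 and 4.51 ± 1.86 CPM (SD, n = 5 each) in Erbb2-deficient adjacent tissue and tumors. The tumor against adjacent difference was 0.81 ± 0.69 (edgeR adjusted p = 0.428) in controls and -1.05 ± 0.73 (adjusted p = 0.3) in Erbb2-deficient mice with all libraries. Without control tumor 2 it was -0.88 ± 0.52 (adjusted p = 0.224) and -1.03 ± 0.47 (adjusted p = 0.0924), and neither passed the test. With control tumor 3 left out as well, the control value was -1.64 and passed (adjusted p = 0.0261).

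Cd74, the invariant chain, gave a like picture. Its row ranged from 2.29 to 14.3 CPM in control adjacent tissue, from 1.69 to 9.77 CPM in the 4 other control tumors, from 4.15 to 27.8 CPM in Erbb2-deficient adjacent tissue and from 4.53 to 14.1 CPM in Erbb2-deficient tumors, and it was 141 CPM in control tumor 2. All 4 ranges overlapped. The tumor against adjacent difference moved from 1.60 ± 0.81 (edgeR adjusted p = 0.165) to -0.68 ± 0.55 (adjusted p = 0.382) in controls when that library was left out. In Erbb2-deficient mice it was -0.83 ± 0.82 (adjusted p = 0.478) with all libraries and -0.81 ± 0.48 (adjusted p = 0.193) without it.

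The other class II chain rows were near 0 on the strand that was counted. The H2-Aa row, for the I-A alpha chain, held at most 7 counts in 18 libraries, 23 in control tumor 2 and 61 in control adjacent tissue 2. The H2-Ea and H2-Eb2 rows reached at most 6 and 3 counts. Of the 6 chain rows, including Cd74, 3 passed the filter on low counts, and their median difference between tumor and adjacent tissue without control tumor 2 was -0.68 in controls and -1.03 in Erbb2-deficient mice, against -0.03 and -0.04 over all rows tested.

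H2-DMa, the alpha chain of the peptide-loading factor, shares 360 exon bases with Brd2, a bromodomain reader of acetylated chromatin on the other strand. The H2-DMa row stood between 67.1 and 154 CPM in control adjacent tissue, between 63.8 and 159 CPM in control tumors without library 2, between 97.7 and 190 CPM in Erbb2-deficient adjacent tissue and between 118 and 153 CPM in Erbb2-deficient tumors, with 274 CPM in control tumor 2. The groups overlapped throughout. Its tumor against adjacent difference was 0.30 ± 0.30 (edgeR adjusted p = 0.514) in controls and 0.01 ± 0.30 (adjusted p = 0.982) in Erbb2-deficient mice, and -0.03 ± 0.27 and 0.03 ± 0.25 without that library (adjusted p = 0.942 and 0.934).

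The Brd2 row, whose reads would be those of H2-DMa over the shared bases if counted on the opposite strand, did not pass the test either. Its group means were 19.7 ± 9.47, 16.9 ± 4.04 (n = 4, without library 2), 21.8 ± 4.34 and 18.9 ± 2.88 CPM (SD, otherwise n = 5) in control adjacent tissue, control tumors, Erbb2-deficient adjacent tissue and Erbb2-deficient tumors. The tumor against adjacent difference was 0.21 ± 0.35 in controls and -0.20 ± 0.35 in Erbb2-deficient mice (edgeR adjusted p = 0.709 and 0.698), and -0.22 ± 0.31 and -0.18 ± 0.29 without control tumor 2 (adjusted p = 0.639 and 0.649). The Brd2 row took 6.99% to 23.9% of the counts in the H2-DMa and Brd2 rows together, with overlap among all groups, and 14.4% in control tumor 2.

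The exons of BC051537 overlap those of H2-Oa, which encodes the alpha chain of the H2-DM inhibitor H2-O, over 321 bases. They also overlap those of H2-Pa over 417 bases, so reads of the 2 genes opposite could not be told apart in this row. The BC051537 row stood at 23.7, 31.9, 2.29, 86.9 and 151 CPM in control adjacent tissue and at 4.19, 1870, 0.92, 16.2 and 4.24 CPM in control tumors. It stood at 82.6, 41.5, 166, 41.6 and 49.0 CPM in Erbb2-deficient adjacent tissue and at 3.02, 3.73, 1.40, 2.98 and 6.48 CPM in Erbb2-deficient tumors. Every Erbb2-deficient tumor was below every Erbb2-deficient adjacent sample. In controls, adjacent sample 3 lay among the tumors and control tumor 2 lay above everything.

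With all libraries, the BC051537 row fell by 4.40 ± 1.56 on the log2 scale in Erbb2-deficient tumors (edgeR adjusted p = 0.0406), and in controls the difference was 2.68 ± 1.32 (adjusted p = 0.152), with control tumor 2 in it. Without that library it fell by 3.24 ± 0.84 in control tumors (adjusted p = 0.00722) and fell by 4.38 ± 0.81 in Erbb2-deficient tumors (adjusted p = 0.000343). The call in Erbb2-deficient mice with all libraries was lost when control adjacent 4, Erbb2-deficient adjacent 1, 2, 3 or 5, or any 1 of the 5 Erbb2-deficient tumors was left out (adjusted p 0.0518 to 0.0930), and when rows of low counts were kept (0.151). In controls without library 2, the fall lost significance in none of 21 further settings (adjusted p 0.000569 to 0.0286), including each remaining library left out.

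H2-Oa itself had a row with 15 counts in control tumor 2 and at most 2 elsewhere. The BC051537 row took 94.4% to 100% of the counts in both rows in every library. The H2-Oa row was at 0 in all 5 Erbb2-deficient tumors, where a count of 0 allows up to 3 counts, or 1.75 to 2.96 CPM over the 20 libraries; this covers counting error only. The H2-Ob, H2-DMb1 and H2-DMb2 rows, for the other chains of H2-O and H2-DM, reached at most 2, 4 and 7 counts.

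Ciita is the master regulator of class II transcription, and Dexi is a small neighbouring gene on the other strand whose exons overlap those of Ciita over 329 bases. The Dexi row stood at 20.7, 52.1, 10.7, 46.6 and 52.5 CPM in control adjacent tissue and at 9.07, 482, 4.60, 12.4 and 9.32 CPM in control tumors. It stood at 25.0, 19.1, 52.4, 19.7 and 21.8 CPM in Erbb2-deficient adjacent tissue and at 3.78, 5.22, 6.29, 5.21 and 6.48 CPM in Erbb2-deficient tumors. The Erbb2-deficient tissues did not overlap. In controls without tumor 2, adjacent sample 3 at 10.7 CPM lay below tumor 4 at 12.4 CPM.

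With all libraries the Dexi row passed the test in neither genotype, at 1.5 ± 0.90 (edgeR adjusted p = 0.248) in controls and -2.33 ± 1.02 (adjusted p = 0.0939) in Erbb2-deficient mice. Without control tumor 2 it fell by 2.05 ± 0.44 in control tumors (adjusted p = 0.00176) and fell by 2.31 ± 0.42 in Erbb2-deficient tumors (adjusted p = 0.000274). These calls held in all 21 further settings tried without that library, with values from -2.29 to -1.83 in controls and from -2.42 to -1.96 in Erbb2-deficient mice.

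The Ciita row did not pass the test in either genotype, with or without control tumor 2. If counted on the opposite strand, its reads over the shared bases would be those of Dexi. The Dexi row would then hold reads of Ciita there, so the Ciita row does not show whether Ciita itself changed. The Ciita row stood at 579, 454, 382, 593 and 430 CPM in control adjacent tissue and at 470, 635, 325, 517 and 433 CPM in control tumors. It stood at 419, 407, 345, 397 and 380 CPM in Erbb2-deficient adjacent tissue and at 308, 354, 276, 339 and 328 CPM in Erbb2-deficient tumors. The groups overlapped in both genotypes, and control tumor 2 was only 1.07-fold above the next library. The tumor against adjacent difference was -0.04 ± 0.17 (edgeR adjusted p = 0.91) in controls and -0.28 ± 0.17 (adjusted p = 0.241) in Erbb2-deficient mice, and -0.18 ± 0.17 and -0.26 ± 0.16 without control tumor 2 (adjusted p = 0.466 and 0.2).

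The share of the Dexi row in the joint counts of the Dexi and Ciita rows does not depend on library scaling, since both counts come from the same library. It was 2.73% to 10.9% in control adjacent tissue and 1.40% to 2.34% in control tumors without library 2. It was 4.48% to 13.2% in Erbb2-deficient adjacent tissue and 1.21% to 2.23% in Erbb2-deficient tumors. The shares of the tissues did not overlap in either genotype once control tumor 2 was left out, and in that library the share was 43.1% (95% Wilson interval 40.4% to 45.9%, counting error only). In controls the gap was within counting error. The intervals were 1.37% to 3.96% for tumor 4 and 1.63% to 4.53% for adjacent sample 3.

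**Figure D2:**
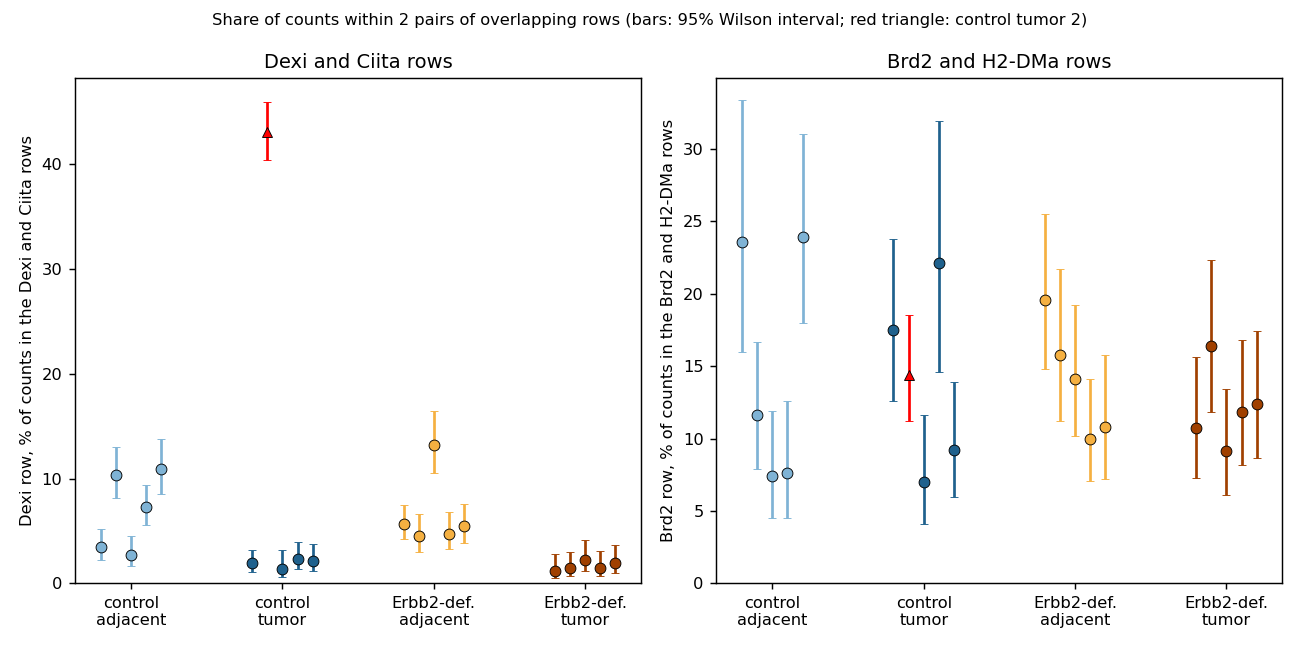
Share of counts (%) in the Dexi row among the Dexi and Ciita rows (left) and in the Brd2 row among the Brd2 and H2-DMa rows (right), for each of the 20 libraries by group; bars are 95% Wilson intervals and the red triangle is control tumor 2. The Dexi share was 43.1% in control tumor 2 and at most 13.2% elsewhere, while the Brd2 share overlapped among all groups.

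**Figure D3:**
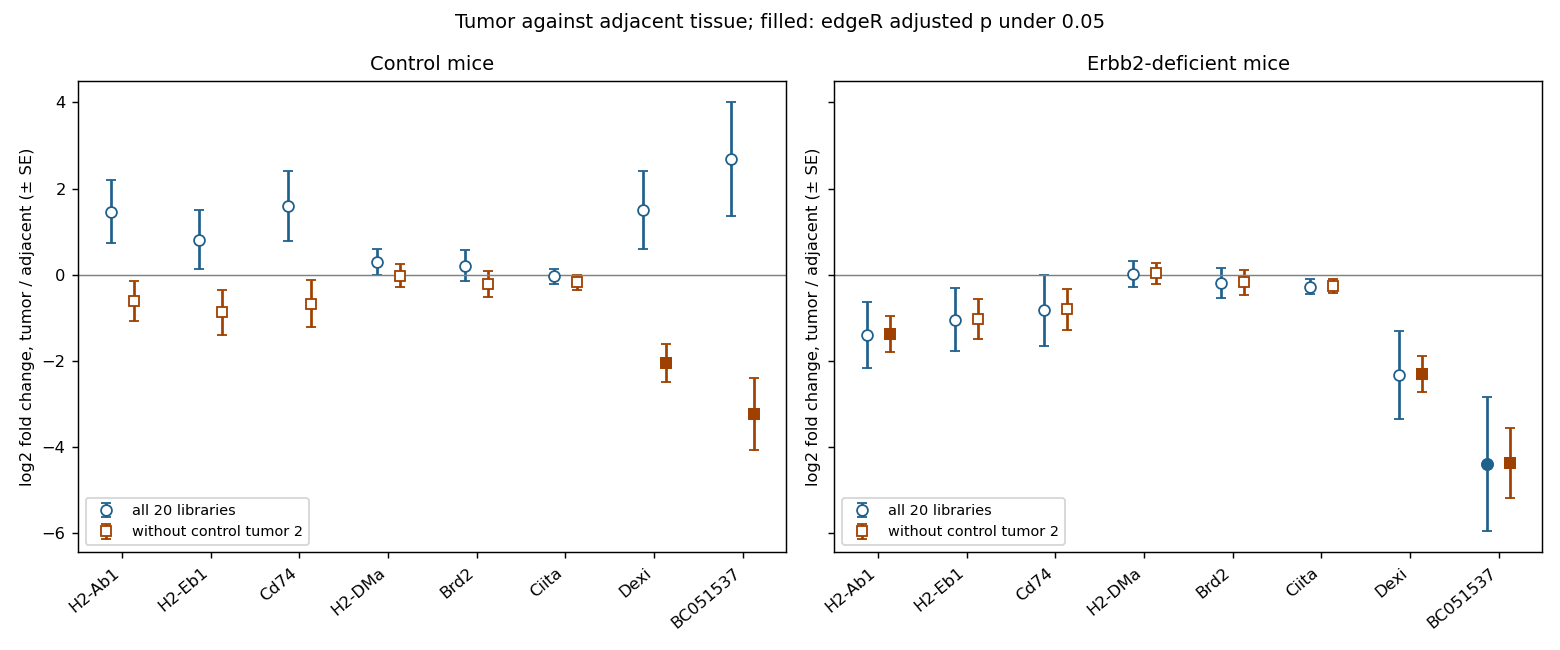
Tumor against adjacent tissue (log2 fold change ± SE from edgeR) for the 8 rows in control mice (left) and Erbb2-deficient mice (right), with all 20 libraries (circles) and without control tumor 2 (squares); filled symbols have an adjusted p under 0.05. Leaving out control tumor 2 turned the control values of the H2-Ab1, H2-Eb1, Cd74, H2-DMa, Brd2, Dexi and BC051537 rows from above to below 0 and narrowed the errors of the last 2 in both panels.

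No difference between the genotypes passed the test in any of the 8 rows, and their libraries overlapped in all 8 rows in tumors and in adjacent tissue, where 2.12% and 1.53% of rows did not overlap. Between Erbb2-deficient and control tumors, edgeR called 0 of the 7119 rows (0% of rows), with 817 (11.5%) at an unadjusted p under 0.05 and 31 called by DESeq2. The BC051537 and Dexi rows differed by -6.71 ± 1.67 and -4.23 ± 1.05 with all libraries (edgeR adjusted p = 0.18 for each) and by -0.80 ± 0.97 and -0.69 ± 0.48 without control tumor 2 (adjusted p = 0.864 and 0.748). The H2-Ab1 row differed by -2.28 ± 0.76 and then by -0.20 ± 0.47 (adjusted p = 0.244 and 0.943). The largest part of each value with all libraries thus came from 1 control tumor.

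The Ciita row was the exception in size: it was 476 ± 114 CPM (SD, n = 5) in control tumors and 321 ± 30.3 CPM (SD, n = 5) in Erbb2-deficient tumors. The difference was -0.57 ± 0.17 (edgeR adjusted p = 0.206) with all libraries and -0.43 ± 0.17 (adjusted p = 0.684) without control tumor 2, and the groups overlapped. In adjacent tissue it was -0.32 ± 0.17 (adjusted p = 0.883). It did not pass the adjusted threshold in either tissue.

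In adjacent tissue edgeR called 0 of 7119 rows between the genotypes (0%), with 418 (5.87%) at an unadjusted p under 0.05 and 1 by DESeq2, and 2 of 7516 rows (0.0266%) without control tumor 2, neither of them a member. The H2-Ab1, BC051537 and Dexi rows differed by 0.58 ± 0.73, 0.36 ± 1.26 and -0.40 ± 0.91 (adjusted p = 0.961, 0.999 and 0.993), and by 0.56 ± 0.40, 0.34 ± 0.64 and -0.43 ± 0.37 without control tumor 2 (adjusted p = 0.704, 0.919 and 0.771). The test of whether the tumor against adjacent difference itself changed with genotype called 0 rows (0%), with 290 (4.07%) at an unadjusted p under 0.05 and 0 by DESeq2. For BC051537 this interaction was -7.08 ± 2.05 with all libraries and -1.14 ± 1.16 without control tumor 2, and for Dexi -3.83 ± 1.36 and -0.26 ± 0.60 (edgeR adjusted p = 1 for all 4). The H2-Ab1 row, called lower in Erbb2-deficient tumors alone, had an interaction of -0.76 ± 0.62 without control tumor 2 (adjusted p = 1), so a difference between the genotypes was not shown.

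How the rows varied together is given as Pearson correlation of log2 CPM over 19 libraries, without control tumor 2, and over all 20. These libraries share 2 tissues and 2 genotypes, and no test was made. The Dexi and BC051537 rows had the highest value among the 28 pairs of members, 0.92 over 19 libraries and 0.95 over 20. H2-Ab1 correlated with Cd74 at 0.75 and 0.89 and with H2-Eb1 at 0.68 and 0.84. Dexi and Ciita, which overlap, stood at 0.56 and 0.67, and H2-DMa and Brd2, which also overlap, at -0.26 and 0.14. The H2-DMa row had its lowest value with Ciita, at -0.56 and -0.18.

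**Figure D4:**
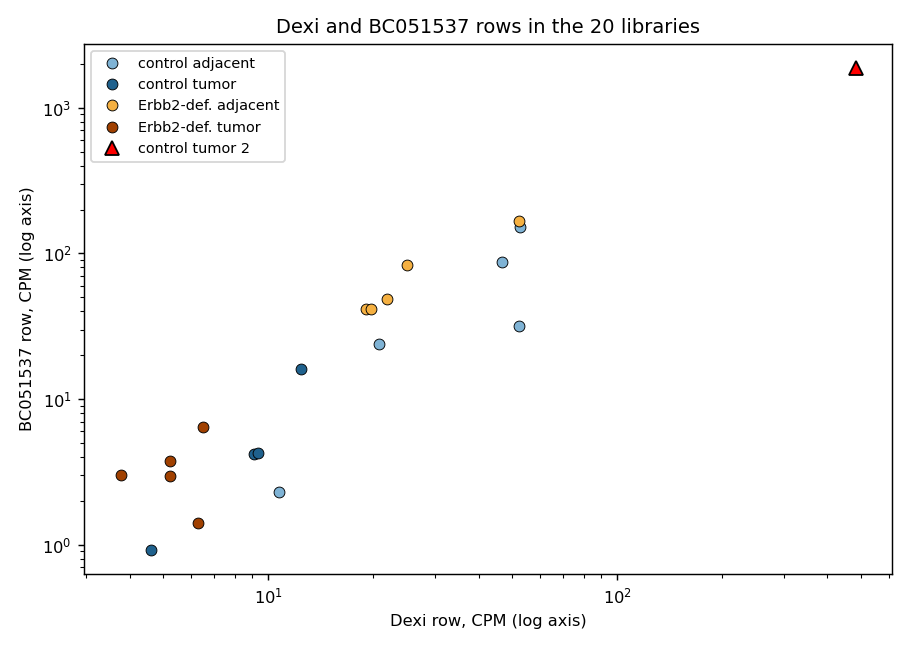
The BC051537 row against the Dexi row (CPM, both axes log) in the 20 libraries; each point is a library, coloured by group, and the red triangle is control tumor 2. Both rows were lowest in tumors and control adjacent sample 3, higher in the other adjacent samples and highest in control tumor 2, with a correlation of log2 CPM of 0.92 over the 19 other libraries.

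The rows tested that were most like BC051537 over 19 libraries were Gm33799 (0.965), Gm32313 (0.946), Gm36165 (0.941), Tctn1 (0.937) and Tbc1d17 (0.924). In RefSeq their spans overlap those of Ccr6 and Gm8465, of Cr2 and Cr1l, of Blk and Gm46458, of Hvcn1, and of Il4i1 and Il4i1b. In GENCODE M21, exons of Akt1s1 also lie opposite Tbc1d17 and those of Gm15481 opposite Tctn1. For the Dexi row the rows most alike were LOC115488669 (0.923), whose span meets Ciita, Mir196b (0.919, but -0.225 over 20 libraries), BC051537, Gm36338 (0.909) and A530040E14Rik (0.904). The spans of Mir196b, Gm36338 and A530040E14Rik overlap those of Gm52902, of Slc14a1, and of A530032D15Rik and Gm35498. Cd74 had H2-Ab1 as the fifth (0.753). For H2-Ab1 the rows were Gm32834 (0.841), Rarres2 (0.839), Itga4 (0.799), Ckmt1 (0.795, but -0.063 over 20 libraries) and Gm46485 (0.771), and for Ciita the first was Bysl (0.916). The spans of the rows like H2-Ab1 overlap, in that order, S1pr3, Lrrc61, Cerkl, Gm33947 with Strc, and Gpr18 with Ubac2.

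Other genes of the pathway were read as lists, in their own rows and in rows opposite them. Of 8 transcription factors of class II genes, 5 had rows tested. Rfxank, a subunit of the X box factor RFX, rose by 0.86 ± 0.18 (edgeR adjusted p = 0.00246) in control tumors and by 0.69 ± 0.18 (adjusted p = 0.00763) in Erbb2-deficient tumors. The row opposite it, Nr2c2ap, moved the other way, by -0.61 ± 0.14 (adjusted p = 0.00356) and -0.81 ± 0.14 (adjusted p = 0.000279), so the direction for RFX depends on the strand that was counted. The Rfx5 row differed by 0.24 ± 0.38 and 0.16 ± 0.38 (adjusted p = 0.698 and 0.789), and by -0.39 ± 0.30 in controls without control tumor 2 (adjusted p = 0.351). The row opposite it, B230398E01Rik, rose by 0.93 ± 0.27 in control tumors (adjusted p = 0.0188), where it no longer passed without control tumor 2 (0.50 ± 0.20, adjusted p = 0.0633), and rose in Erbb2-deficient tumors without that library (0.70 ± 0.19, adjusted p = 0.00542). Of the 9 genes of endosomal processing and turnover (Ctss, Ifi30, Marchf1 and others), 0 of 6 rows tested were called in either genotype, against 21.6% of all rows in controls and 13% higher and 14.5% lower in Erbb2-deficient mice.

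Of 12 interferon gamma genes, 5 had rows tested. Ifng itself had 0 counts in every library. The Jak1 row, for a kinase of the interferon receptor, fell by 1.91 ± 0.56 (edgeR adjusted p = 0.0193) in control tumors (-3.22 ± 0.44 without control tumor 2, adjusted p = 2.37e-05) and differed by -1.42 ± 0.56 (adjusted p = 0.0654) in Erbb2-deficient tumors, where it passed without control tumor 2 (-1.41 ± 0.37, adjusted p = 0.0047). The row opposite it, Raver2, differed by -0.09 ± 0.41 and -0.43 ± 0.42 (adjusted p = 0.902 and 0.467). In controls without control tumor 2 Raver2 differed by -0.61 ± 0.38 (adjusted p = 0.241). Whether the fall is that of Jak1 thus depends on the strand that was counted. The Irf1 row differed by -0.12 ± 0.47 and -0.57 ± 0.47 (adjusted p = 0.886 and 0.392), and by -0.93 ± 0.38 in controls without control tumor 2 (adjusted p = 0.0713). In the MHC class I pathway 1 of 6 rows tested was higher in each genotype, Tapbp, the class I peptide-loading chaperone tapasin, by 0.88 ± 0.23 and 0.85 ± 0.23 (adjusted p = 0.00936 and 0.00843), against 10.7% and 13% of all rows tested. The row opposite it, Gm19412, differed by 0.49 ± 0.42 and 0.15 ± 0.42 (adjusted p = 0.425 and 0.823). The class I heavy chain row H2-D1 differed by -0.80 ± 0.39 in Erbb2-deficient mice (adjusted p = 0.126), and by -0.79 ± 0.30 without control tumor 2 (adjusted p = 0.0446).

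Markers of other cells moved beside these rows. Over the 3 rows opposite B cell genes (Bcl9l opposite Cxcr5, and 5730488B01Rik and Gm12462 opposite Pax5) the summed level was 10.7 to 48.0 CPM in control adjacent tissue, 6.44 to 16.2 CPM in control tumors without library 2, 13.6 to 46.8 CPM in Erbb2-deficient adjacent tissue, 8.95 to 13.3 CPM in Erbb2-deficient tumors and 578 CPM in control tumor 2. The 12 B cell rows themselves summed to 282 to 402, 336 to 527 (808 in control tumor 2), 262 to 320 and 334 to 479 CPM in the same order of groups, tumors overlapping adjacent tissue in controls and lying above it in Erbb2-deficient mice, with Fcer2a at a mean of 271, 399 (without library 2), 231 and 328 CPM. The Bcl9l row alone differed by -1.11 ± 0.42 in controls and -1.01 ± 0.38 in Erbb2-deficient mice without control tumor 2 (edgeR adjusted p = 0.0557 and 0.0454). Most other B cell rows held too few counts to show a difference: Cd79b, Pax5, Spib, Blk and Pou2af1 had means of 0.358, 1.09, 0.534, 0.357 and 0.524 CPM in control adjacent tissue and were at 0 in the 4 other control tumors, where 0 counts allow as much. The Cd22 row had means of 1.46 and 3.78 CPM there. Of the 12 B cell rows themselves, 3 were tested; Fcer2a rose in both genotypes (0.62 ± 0.17 and 0.50 ± 0.17, adjusted p = 0.0114 and 0.0286), and in Erbb2-deficient tumors Cxcr5 rose by 1.13 ± 0.33 (adjusted p = 0.0142) and Ms4a1 fell by 1.39 ± 0.50 (adjusted p = 0.0432). The part of B cells in the fall of the BC051537 and Dexi rows was not tested.

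Other tissue components were read the same way. The summed level of the 6 smooth muscle rows was 980 to 2400 CPM in control adjacent tissue, 156 to 506 CPM in control tumors, 986 to 1290 CPM in Erbb2-deficient adjacent tissue and 159 to 241 CPM in Erbb2-deficient tumors. The 9 epithelial rows summed to 349 to 949 CPM in control adjacent tissue, 15.4 to 968 CPM in control tumors, with the lowest in control tumor 2, and 512 to 978 and 319 to 692 CPM in Erbb2-deficient adjacent tissue and tumors. Of 8 rows tested, 0 were called in either genotype, against 21.6% of all rows in controls and 13% higher and 14.5% lower in Erbb2-deficient mice. Without control tumor 2, 2 and 1 of 9 were called higher, against 12.9% and 16.9% of all rows tested. The 16 rows of dendritic cells and macrophages summed to 35.2 to 68.9, 40.5 to 79.0 (127 in control tumor 2), 41.5 to 82.5 and 48.4 to 81.1 CPM in the same order of groups, with overlap among all. Among them C1qc rose by 2.02 ± 0.66 in control tumors (edgeR adjusted p = 0.0323; 1.82 ± 0.68 and 0.0512 without control tumor 2), and Cd68 differed by -0.36 ± 0.61 (adjusted p = 0.72) and fell without that library (-1.69 ± 0.54, adjusted p = 0.0252). The T cell rows were not tested, all being under the count filter. The part of muscle, epithelium and myeloid cells in the members' differences was not tested.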

How the data were processed

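Bulk mRNA of 20 mouse samples in 4 groups of 5 was sequenced with a stranded kit, per the labels' protocols. The deposited files hold raw counts per gene row. Per the submitters' processing notes the tools were Trimmomatic, HISAT2 2.2.1, HTSeq 2.0.2 and DESeq2 with the build mm39. Their settings, and whether strand was used, were not given in the sources used here. The rows that name no gene, 96.6% to 97.5% of all counts, stayed out of library sizes and tests.

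From the counts, edgeR 4.0.16 (R 4.3.3, limma 3.58.1) was run with TMM scaling, its filter at a minimum count of 10 by group, 1 model of the 4 groups with robust quasi-likelihood F tests, and Benjamini-Hochberg adjustment at 0.05 over all rows tested (7119, or 7516 without control tumor 2). The SE is the log2 fold change over the root of F. Levels are CPM after TMM scaling, and correlations use log2 CPM with a prior count of 2. Rows on opposite strands were found by exon overlap in GENCODE M21, matched by symbol for 34632 of 46329 rows, and names of neighbours within 2000 bases and promoter windows come from RefSeq (GRCm38.p6); no coordinates were carried between builds. Tests were checked on simulated counts, for tissue in controls, genotype in tumors and the interaction. Of rows changed 2-fold, 18 of 96, 16 of 94 and 1 of 97 were called, in that order. Of rows changed 4-fold, 63 of 99, 77 of 96 and 38 of 98 were called. A difference that did not pass the test may therefore have been missed.

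The 8 members were named by rule, and per list up to 4 rows of smallest p and, per member, the 5 rows most alike were eligible to be named. Members, lists and alternatives were chosen with earlier results of these data known. The labels call the samples biological replicates without tying them to animals, so p-values measure the spread between these libraries. Alternatives were DESeq2 1.42.0, other scaling, no filter, each library left out, a replicate block and a term for sex.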

Additional observations from a re-analysis of the deposited data

Results flagged for a closer look

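In groups of 5 libraries, a library was set aside for a closer look where its gap to the nearest other, over the range of its group, exceeded 0.71. Of 32 sets of member and group, 8 met this. Chance gives about 1 in 20, but the sets share libraries and control tumor 2 was known beforehand to stand apart, so the number is no test. Control tumor 2 was the high library in 6 of them: 162 CPM in the H2-Ab1 row, 58.1 CPM in H2-Eb1, 141 CPM in Cd74, 46.3 CPM in Brd2, 482 CPM in Dexi and 1870 CPM in BC051537. The H2-DMa and Ciita rows of that library, at 274 and 635 CPM, did not meet it.

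Control adjacent sample 3 was the low library in the Cd74 row at 2.29 CPM. It was also the lowest of its group in the H2-Ab1, Brd2, Ciita, Dexi and BC051537 rows, at 6.88, 11.5, 382, 10.7 and 2.29 CPM. Erbb2-deficient adjacent sample 3 was the high library in the Dexi row at 52.4 CPM, and was the highest of its group in the H2-Ab1, H2-Eb1, Cd74, Brd2 and BC051537 rows, at 38.9, 15.9, 27.8, 25.4 and 166 CPM.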

How the results depend on the processing

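The control comparison rests on control tumor 2. With control tumors 2 and 3 left out, the tumor against adjacent values in controls were -0.79 for H2-Ab1, -1.64 for H2-Eb1 (edgeR adjusted p = 0.0261), -0.64 for Cd74, -0.19 for H2-DMa, -0.08 for Brd2, -1.83 for Dexi (adjusted p = 0.00457) and -2.88 for BC051537 (adjusted p = 0.0222). The genotype values in tumors were then 0.01, 0.75, 0.31, 0.40 and 0.06 for H2-Ab1, H2-Eb1, Cd74, H2-DMa and Brd2, and the interaction was 0.66 for H2-Eb1 and 0.26 for H2-DMa. Leaving out 1 library at a time gave ranges across 0 in controls: -0.62 to 1.80 for H2-Ab1, -0.88 to 1.16 for H2-Eb1, -0.68 to 1.95 for Cd74, -0.03 to 0.52 for H2-DMa, -0.22 to 0.52 for Brd2, -0.18 to 0.10 for Ciita, -2.05 to 1.88 for Dexi and -3.24 to 3.45 for BC051537. The same held for H2-DMa in Erbb2-deficient mice (-0.07 to 0.16), for genotype in tumors in Cd74 (-2.32 to 0.31), H2-DMa (-0.34 to 0.21) and Brd2 (-0.42 to 0.16), for genotype in adjacent tissue in H2-Eb1 (-0.15 to 0.31), H2-DMa (-0.01 to 0.24), Brd2 (-0.02 to 0.42) and BC051537 (-0.15 to 1.05), and for the interaction in H2-DMa (-0.48 to 0.07) and Brd2 (-0.71 to 0.04).

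The BC051537 call in Erbb2-deficient mice with all libraries was lost in 11 of 26 settings (adjusted p 1.53e-05 to 0.151 over all), 10 of them with 1 library left out. The cause was not tested. Dexi in the same comparison passed in 4 of 26 settings and H2-Ab1 in 3 of 27. With control tumor 2 left out, settings chosen after seeing the data (each further library left out, DESeq2 and a term for sex by the Tsix row) kept all Dexi and BC051537 calls in both genotypes, and H2-Ab1 in Erbb2-deficient mice at -1.69 to -1.08 (adjusted p 0.00622 to 0.0466). DESeq2 with all libraries gave no adjusted p for Dexi and BC051537.

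Counts of rows called moved from 1540 to 2544 in controls and from 1959 to 2939 in Erbb2-deficient mice with control tumors 2 and 3 left out, and to 593 in controls when only the 2 groups compared were fitted. Genotype counts of 0 became 31 with DESeq2 in tumors, and in adjacent tissue 1 with DESeq2, 1 with no filter, 1 with control tumors 2 and 3 left out and 0 to 2 with 1 library left out (2 without control tumor 2, 1 without control adjacent 5). The labels do not say that equal replicate numbers mark 1 mouse, and the numbers were not taken to pair the libraries. The correlation of deviations passed 0.1 in 6 of 10 pairs, and 4 of 10 tumors correlated best with their own number, while the Tsix row was above or below 50 CPM in both tissues alike for all 10 numbers. With the replicate block, the calls were 1428 and 1989 for tissue and 0 for genotype and interaction, the control values of H2-Eb1, Dexi and BC051537 were -0.09, -0.81 and -1.75, and Dexi passed in Erbb2-deficient mice (-2.26, adjusted p = 0.0266). Low counts limit H2-Ab1, H2-Eb1 and Cd74, whose rows held as few as 5, 1 and 2.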
